A study of Coprinopsis cinerea with 4 samples.

Results

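Paralogous regions that stand in tandem runs were followed in the mushroom Coprinopsis cinerea, in 2 libraries of oidia and 2 of hyphae. A run was taken as 3 or more consecutive rows classed as paralogous along a chromosome, with no orthologous or orphan row between them. Rows within 100000 bp of a centromere row, or of the first or last annotated position of a chromosome, were left out. This gave 1598 regions in 348 runs, of 3717 paralogous regions and of 13236 orthologous, paralogous and orphan regions in all. The rule used position and class only, and no read count. Runs of 3 members were the most common (169 runs), 75 runs held 4 members, and the longest held 25. The table does not say which rows are paralogs of which, so neighbours in a run need not belong to the same family.

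All 4 libraries came from strain okayama7#130 and from poly(A)-selected RNA. Oidia are asexual spores of 1 cell each, while hyphae form the growing mycelium. For oidia the library kit was SOLiD Total RNA-seq and for hyphae NEBNext Ultra for Illumina, so in every comparison stage and kit cannot be told apart. The labels do not say whether replicates are separate cultures. The p-values therefore cover the spread between these libraries alone, which may be technical. In RNA from whole cultures, fewer cells of a type and less RNA per cell cannot be told apart.

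Tandem arrays arise when a gene is copied next to itself, commonly by unequal crossing-over, and the copies may then keep, divide or lose their expression. In mushroom-forming fungi, families such as cytochromes P450, hydrophobins, protein kinases and F-box proteins are known for large lineage-specific expansions. Transposable elements also leave many related copies, which may fall in the same class when they carry coding regions. The tables used here give no product names for C. cinerea genes, so the members are named by locus tag and no family is assigned to them. Of the 1598 members, 1595 lay inside exactly 1 gene of the RefSeq assembly CC3, whose locus tag is used. Coordinates are those of the deposited table (genome build not given).

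The runs were spread over all 13 chromosomes, but unevenly. Members made up 22.2% of the regions of chromosome 9 and 21.5% of those of chromosome 6, against 5.80% on chromosome 1 and 6.17% on chromosome 8. A run covered a median of 8056 bp, and the widest covered 62422 bp. Gaps between neighbouring members had a median of 544.5 bp, close to the 576 bp between all other neighbouring regions. Neighbouring members were of like length (within 10%) in 214 of 1250 pairs, or 17.1%, against 9.41% of the 11973 other neighbouring pairs. Members had a median length of 1386 bp, from 81 to 12179 bp, against 1675 bp in orthologous regions. On their outer sides the runs met orphan rows 385 times and orthologous rows 311 times.

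Many members had few reads in either stage. No read was counted in any library for 117 members, and 626 had reads in hyphae but none in oidia. Reads in oidia but none in hyphae were found for 10, and 845 had reads in both. A read was thus absent from oidia in 46.5% of members, against 24.6% of paralogous regions in runs of 1 or 2, 22.9% of orphan regions and 2.25% of orthologous regions. Of the 418 regions in runs of 3 or more left out as near a centromere or chromosome end, 209 had no oidia read. The high share was therefore not particular to the members. In hyphae the corresponding share was 7.95% of members, against 7.42% of the runs left out, 3.47% of paralogous regions in runs of 1 or 2, 4.31% of orphan and 0.154% of orthologous regions. The median member held 6 and 3 reads in the hyphal libraries, and 0 in each oidia library, where the median orthologous region held 197, 152, 97 and 78. The median orphan region held 25, 19, 10 and 8, and paralogous regions in runs of 1 or 2 held 22, 15, 6 and 5. These shares were not tested, since regions are not replicates. The handling of multi-copy reads is not given, so a count of 0 in a region with like copies need not mean that it was silent. A count of 0 over the 2 oidia libraries allows a level of up to 0.376 CPM (counts scaled to library size by TMM), and over the 2 hyphae libraries up to 0.216 CPM, by a floor of 3 reads that covers counting error only.

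Oidia reads were most often absent in the longest runs. Oidia reads were absent from 26.7% of members in runs of 3, 37.5% in runs of 4, 47.8% in runs of 5 to 7 and 76.9% in runs of 8 or more. Just outside the rule, the share was 28.0% for paralogous regions in runs of 2 and 19.5% for those standing alone, both counted outside the excluded zones. Runs of 2 and of 3 thus differed little. The part of multi-copy reads in these shares was not tested. The share with enough reads to test was 66.4% and 56.5% in runs of 1 and 2 and then 55.7%, 49.2%, 39.8% and 13.8%. The 398 members in runs of 8 or more held only 0.18% and 0.164% of the region reads of hyphae replicates 1 and 2, and 0.0259% and 0.0258% of those of oidia.

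**Figure D1:**
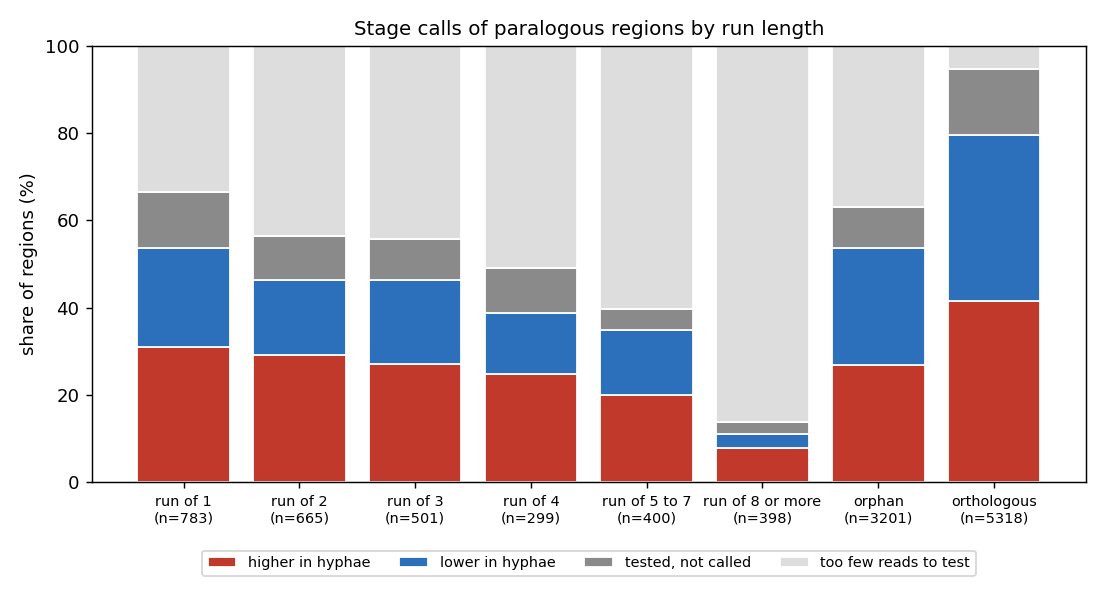
Share of regions (%) called higher in hyphae, lower in hyphae, tested without a call, or with too few reads to test. Paralogous regions are split by the length of their run, beside orphan and orthologous regions, all outside the excluded zones. The untestable share was largest in runs of 8 or more, of which 13.8% could be tested.

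The few hyphal reads of the untested members had an uneven split between the replicates. The 599 untested members with hyphal and no oidia reads held 2222 reads in hyphae replicate 1 and 1113 in replicate 2, a ratio of 2.00. Orthologous regions and tested members each had a ratio of 1.30. Repeat and centromere rows that overlap no region and have no oidia read had a ratio of 1.95, at 0.398 and 0.204 reads per kb, where the 599 members had 2.14 and 1.07. Whether background reads of hyphae replicate 1 take part in these low counts was not tested.

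Transposon sequence was present in some of the runs. Repeat rows of the table overlapped 186 members in 57 runs, or 11.6% of members, against 2.09% of all regions, 1.29% of paralogous regions in runs of 1 or 2 and 0.137% of orthologous regions. Most of these were Kyakuja elements, a family of DNA transposons that carry TET/JBP and other domains, with 164 members. Dileera, a second DNA transposon family, overlapped 17. By domain, 42 members overlapped Kyakuja transposase rows, 42 alpha-helix rows, 36 TET/JBP rows, 28 HMG rows and 19 cys rows, and some overlapped several. TET/JBP proteins are dioxygenases whose TET members oxidise methylcytosine. HMG boxes are DNA-binding domains.

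Of the 186, 182 overlapped rows of a named transposon class. No oidia read was found for 90.9% of the 186, against 40.7% of the other 1412. In hyphae most had some reads: 144 of the 186 were read in hyphae alone and 25 in no library, with a median of 2 and 1 reads in the hyphal libraries. Reads from like transposon copies may not be counted to each copy, and their part here was not tested. Only 8 of the 186 could be tested, of which 2 were higher and 4 lower in hyphae, where 44.1% and 40.0% of all tested rows were. Of 282 members in runs of 8 or more that overlap no repeat row, 69.9% had no oidia read, against 26.5% of 495 such members in runs of 3.

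The 3 longest runs held few reads. The run of 25 members on chromosome 2, from 3317894 to 3363402, held 32 and 14 hyphal and 1 and 0 oidia reads over all its members, and 11 members had no read in any library. None of the 25 could be tested. The run of 19 on chromosome 12, from 1935492 to 1990875, had no oidia read in 18 members. Its last member, CC1G_10238, was the exception, with 55 and 31 hyphal against 6 and 9 oidia reads, a log2 fold change (hyphae over oidia) of 1.70 ± 0.41 (SE, adjusted p = 6.38e-05, edgeR). That member alone held most of the run's 88 and 52 hyphal reads and all of its oidia reads.

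The run of 24 on chromosome 9, from 182865 to 245286, was more mixed. Of its members 15 had no oidia read and 6 could be tested. CC1G_07040 was the most read, with 102 and 83 hyphal against 225 and 167 oidia reads, and was lower in hyphae, by a log2 fold change of -1.88 ± 0.15 (SE, edgeR adjusted p = 4.54e-37). CC1G_15117, a short member of 249 bp, counted 1 and 0 hyphal against 11 and 11 oidia reads and was also lower in hyphae, with scaled reads in a ratio of 38.3 (95% exact limits 6.19 to 1581). CC1G_07031 had 16 and 13 hyphal reads and no oidia read and was higher in hyphae, at least 5.55-fold against the floor of 3 reads. CC1G_07033, CC1G_12692 and CC1G_12700 were tested without a call, at log2 fold changes of -0.63, -0.13 and 0.66 (adjusted p = 0.1, 0.738 and 0.102, edgeR). With total-count scaling all 3 were called higher in hyphae (0.91, 1.41 and 2.20). CC1G_12700 was also called higher with upper-quartile factors (0.93, adjusted p = 0.0246, edgeR) and without oidia replicate 2 (1.07, adjusted p = 0.0324, edgeR). CC1G_12692 was called lower without oidia replicate 1 (-0.79, adjusted p = 0.036, edgeR). Oidia reads of CC1G_12692 differed between the replicates, at 11 and 28.

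Among members with enough reads, most differed between the stages, as most regions did. Of 1598 members 640 were tested, and 321 were higher and 211 lower in hyphae at an adjusted p under 0.05 (edgeR's quasi-likelihood test, Benjamini-Hochberg adjustment over 9622 tested rows). That is 83.1% of tested members, near the 84.1% called among all tested rows. Calls higher in hyphae made up 50.2% of tested members, against a background of 44.1%, and calls lower in hyphae 33.0%, against 40.0%. Over all 1792 tested paralogous regions, members included, 82.3% were called, 48.4% higher and 33.8% lower. In the runs of 3 or more left out as near a centromere or chromosome end, 135 regions were tested. Of these 43.0% were higher and 42.2% lower, with a median log2 fold change of -0.08. Direction depends on how the libraries are scaled: with total-count scaling 461 members were higher and 105 lower, and 81.4% of the calls lay in hyphae both for members and for all regions. The median log2 fold change of tested members was 0.60, with quartiles of -1.28 and 2.49, and that of orthologous regions 0.08. With total-count scaling the medians were 2.15 and 1.62.

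Changes of at least 4-fold were found in 204 members higher and 119 lower in hyphae. Together they were 50.5% of tested members, where the background over all tested rows was 35.8%, with 19.8% higher and 16.0% lower. Over all tested paralogous regions it was 48.5%, with 30.1% higher and 18.4% lower. The share was 45.9% for paralogous regions in runs of 1 or 2, 42.0% for orphan and 29.0% for orthologous regions. It was higher, at 58.5% of 135 tested regions, in the runs of 3 or more left out as near a centromere or chromosome end. The filter on low counts was passed by 40.1% of members, against 94.6% of orthologous regions and 32.3% of regions in the runs left out. A region read in 1 stage only passes through that stage, so these shares describe the tested regions alone. No test of the difference between classes was made.

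**Figure D2:**
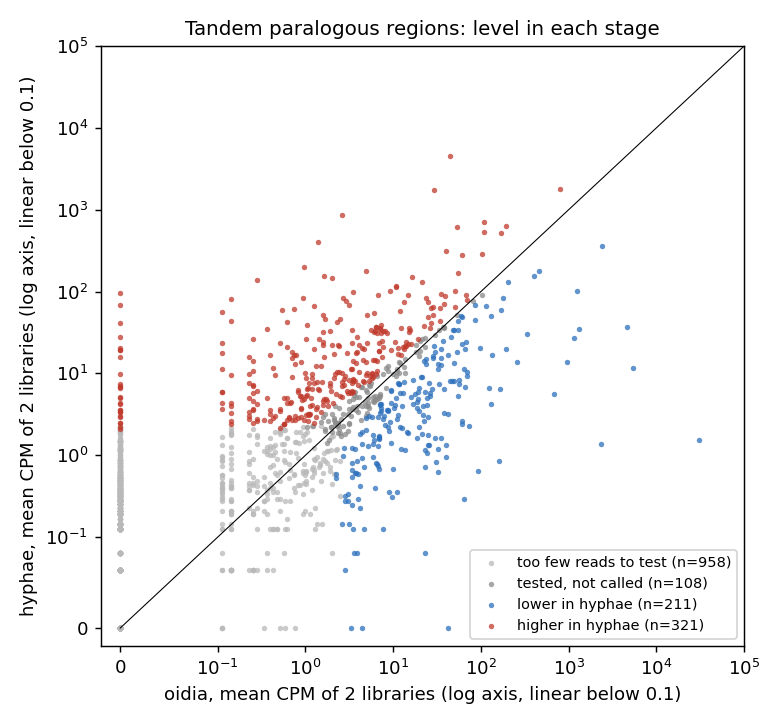
Mean CPM in oidia (horizontal) and hyphae (vertical) for all 1598 members, each point 1 region and the line marking equal levels. Axes are logarithmic above 0.1 CPM and linear below. Members called higher in hyphae (321) lie above the line and those called lower (211) below it, and CC1G_04666 stands apart at the far right with 30321 CPM in oidia.

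Reads of the tandem members were concentrated in few of them, above all in oidia. Members took 3.82% and 3.59% of all region reads in the hyphal libraries, and 3.28% and 3.25% in oidia. A single member took 18.6% and 18.5% of the members' reads in hyphae and 48.3% and 49.3% in oidia. The 10 leading members took 49.9% and 50% in hyphae and 81.1% and 81.6% in oidia. Such shares are not given here for other classes, so the concentration is not shown to be particular to the members.

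The leading oidia member was CC1G_04666, on chromosome 3 from 751910 to 752481. It counted 131992 and 109776 oidia against 11 and 10 hyphal reads. Every oidia read count was thus far above every hyphal one, at 30321 ± 763 CPM against 1.53 ± 0.180 (SD, n = 2 each). Its log2 fold change was -14.27 ± 0.12 (SE), the widest change among members read in both stages. Its neighbours in the run of 3 were read little. CC1G_04665, next to it, counted 4 and 5 hyphal against 19 and 9 oidia reads (log2 fold change -2.39 ± 0.55, SE, adjusted p = 2.43e-05, edgeR). CC1G_04664 went the other way, with 71 and 68 hyphal against 5 and 3 oidia reads (3.30 ± 0.43, SE, adjusted p = 4.16e-14, edgeR). With total-count scaling CC1G_04665 no longer passed (-0.87, adjusted p = 0.146, edgeR).

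By level per kb, the other leading oidia members were among the shortest regions of the table. By RPKM (CPM per kb of region), the top 5 members in oidia were CC1G_14011, CC1G_14010, CC1G_04666, CC1G_14007 and CC1G_08185, and 4 of these 5 are regions of exactly 84 bp. Division by length weighs such short regions more. In mean oidia CPM, CC1G_04666 had 30321, CC1G_14011 5421, CC1G_14010 4609, CC1G_14007 2354 and CC1G_08185 957. CC1G_03339, of 1256 bp, had 1238 CPM. CC1G_14010 and CC1G_14011 are neighbours on chromosome 2, from 3099158 to 3099241 and from 3100540 to 3100623. CC1G_14010 counted 19744 and 16941 oidia against 294 and 224 hyphal reads, or 54866 ± 2590 RPKM against 443 ± 2.90 (SD, n = 2 each). CC1G_14011 counted 24252 and 19100 oidia against 89 and 71 hyphal reads, or 64533 ± 863 RPKM against 137 ± 3.56 (SD, n = 2 each). The 2 levels in oidia differed by more than their spread. Their log2 fold changes were -6.95 ± 0.08 and -8.88 ± 0.10 (SE). The third member of their run, CC1G_06133, was read little in both stages, with 10 and 6 hyphal against 3 and 10 oidia reads.

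A second pair of 84 bp regions lay in the next run upstream on chromosome 2, across 2 orphan and 2 orthologous rows. CC1G_14007, from 3085435 to 3085518, counted 11231 and 7735 oidia against 15 and 5 hyphal reads, a log2 fold change of -10.66 ± 0.13 (SE). That value was -11.40 without hyphae replicate 1. CC1G_14008, from 3086272 to 3086355, counted 714 and 567 oidia against 8 and 4 hyphal reads (-7.50 ± 0.18, SE). The first member of that run, CC1G_06127, went the other way, with 41 and 35 hyphal against 3 and 5 oidia reads (2.42, adjusted p = 1.6e-06, edgeR). CC1G_08185 is the fifth 84 bp member, on chromosome 5 from 637711 to 637794. It counted 4521 and 3180 oidia against 117 and 75 hyphal reads (-6.12 ± 0.10, SE). Its adjoining members CC1G_08186 and CC1G_08184 had at most 18 reads in any library and were also lower in hyphae (-1.60 and -2.51, adjusted p = 0.000513 and 1.76e-05, edgeR). With total-count scaling neither passed (-0.07 and -0.99, adjusted p = 0.889 and 0.109, edgeR), and CC1G_08186 did not pass without hyphae replicate 2 (-1.28, adjusted p = 0.0836, edgeR).

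Short members as a group were chosen for description after their values were seen. Of 14 members under 120 bp, 9 could be tested and all 9 were lower in hyphae, with a median log2 fold change of -7.50, against 40.0% called lower among all tested rows. Outside the tandem members there were 11 regions under 120 bp, of which 8 were tested, 6 lower and 1 higher in hyphae. The table held 8 regions of 84 bp, all classed as paralogous, 5 of them tandem members, and all 8 were lower in hyphae. The remaining 3 were CC1G_14855, with 221 and 208 reads in oidia and 2 and 2 in hyphae, CC1G_14884, with 2293 and 1961 against 11 and 9, and CC1G_03452, with 5439 and 6006 against 15 and 9. The part of the library kit in the counts of such short regions was not tested. The sources used here do not give the handling of multi-copy reads, so their split among like copies is uncertain.

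Hyphae had other leading members, most of them longer. CC1G_02388, on chromosome 3 from 3319805 to 3320647, was the most abundant by RPKM, at 5420 ± 32.0 against 52.2 ± 2.62 in oidia (SD, n = 2 each). It counted 36075 and 27511 hyphal against 188 and 162 oidia reads. CC1G_05819, on chromosome 12 from 260801 to 261433, followed with 14071 and 10058 hyphal against 109 and 121 oidia reads (log2 fold change 5.90 ± 0.09, SE). Its 2 companions in the run, CC1G_05820 and CC1G_05821, had at most 3 reads in any library. CC1G_15739, on chromosome 11 from 1666686 to 1667966, was abundant in both stages, with 14089 and 10496 hyphal against 3528 and 2881 oidia reads (1.14 ± 0.06, SE, adjusted p = 3.36e-70, edgeR). CC1G_05458, on chromosome 11 from 1585260 to 1585790, counted 5264 and 4430 hyphal against 493 and 375 oidia reads (2.69 ± 0.08, SE).

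CC1G_05605 was among the leading hyphal members both by level and by change. It lies on chromosome 13 from 159784 to 160372, with 6676 and 5226 hyphal against 12 and 9 oidia reads (log2 fold change 8.34 ± 0.14, SE). The next member of its run, CC1G_05606, counted 3161 and 2489 hyphal against 5 and 6 oidia reads (8.18). The third, CC1G_05607, had 20 and 11 in hyphae and none in oidia, too few to test.

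Other members were read almost only in hyphae. They were named by a rule that took the 8 calls with the largest fitted fold change in each direction, which for members with no read in a stage is not a measured fold, among members with a mean scaled count of at least 100 and no overlap between the stages. Beside CC1G_05605, 7 members met it as higher in hyphae, and the adjusted p of all 8 was at most 9.28e-89 (edgeR). CC1G_08382, on chromosome 7 from 2790933 to 2791447, had 710 and 627 hyphal reads and no oidia read, at least 256-fold higher against the floor of 3 reads over the stage. CC1G_00952, on chromosome 7 from 1530860 to 1535033, had 542 and 413 reads and none, at least 183-fold higher. CC1G_09456, on chromosome 6 from 1727787 to 1731216, had 335 and 243 reads and none, at least 111-fold higher. That the stages do not overlap in these members was set by the rule.

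The next 4 had 1 or 2 oidia reads. CC1G_15645, on chromosome 11, counted 595 and 532 hyphal against 0 and 1 oidia reads, scaled reads in a ratio of 647 (95% exact limits 116 to 25589). CC1G_05367, on chromosome 8 from 133599 to 134902, had 1037 and 867 reads against 0 and 2, a ratio of 547 (151 to 4518). CC1G_11035, on chromosome 10 from 836873 to 839046, had 457 and 320 reads against 1 and 0, a ratio of 446 (79.9 to 17649). CC1G_02355, on chromosome 3 from 3204264 to 3205101, had 368 and 251 reads against 0 and 1, a ratio of 356 (63.6 to 14065). Such wide intervals come from having only 1 or 2 oidia reads, so the order of these 4 is not resolved.

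Beside the short regions and CC1G_04666, the same rule, with its mean scaled count of at least 100, took CC1G_03340 and CC1G_04722 as lower in hyphae. CC1G_04722, on chromosome 13 from 607699 to 608534, counted 5 and 4 hyphal against 441 and 306 oidia reads (log2 fold change -7.12 ± 0.22, SE, adjusted p = 4.88e-220, edgeR). Its run companions CC1G_04723 and CC1G_04724 had at most 3 reads in any library.

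Members of a run did not always change together. At least 2 members were called in 154 runs. All called members were higher in hyphae in 65 of these runs and lower in 20, and 69 held calls in both directions. Of 206 pairs of next neighbours within a run that were both called, 146 had the same direction, or 70.9%. Over the 5392 such pairs of all other neighbouring regions the share was 59.2%, for orphan neighbours 64.6% and for orthologous neighbours 58.8%. The rank correlation of the log2 fold changes of neighbours was 0.42 over the 206 member pairs and 0.24 over the other pairs. Pairs share the same 4 libraries and a chromosome position, and members may share sequence, so these values are descriptions without a test. Same-direction pairs in a run were a median of 521.5 bp apart and opposite pairs 600 bp apart.

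**Figure D3:**
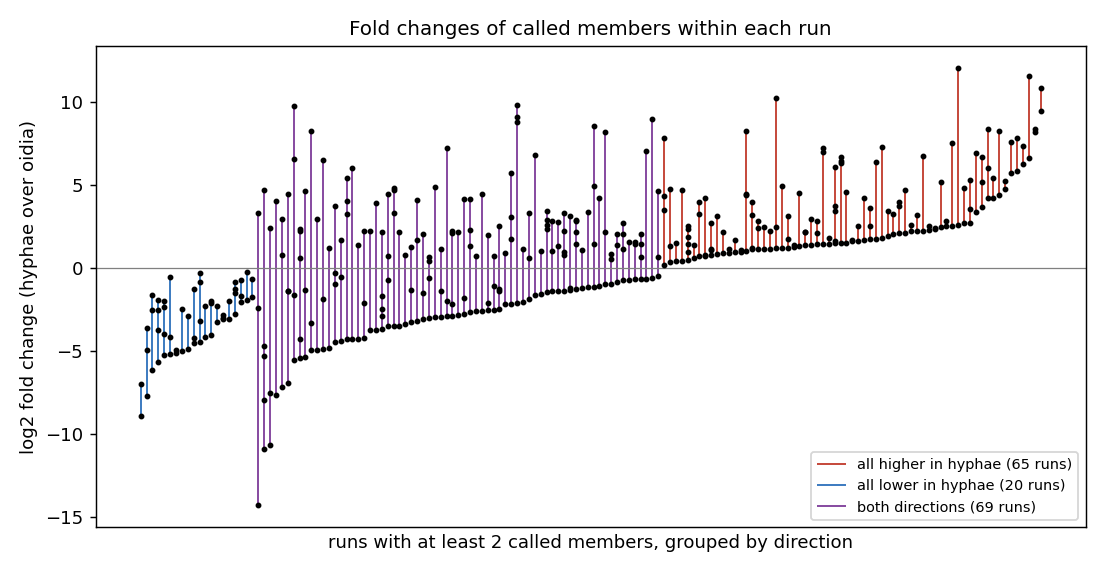
Log2 fold changes (hyphae over oidia) of called members in the 154 runs with at least 2 called members. Each vertical line is 1 run from its lowest to its highest called member, points are members, and values of members with no read in a stage are fitted and not measured folds. In 69 runs the line crosses 0.

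After the run of CC1G_04666, the widest spreads of fitted log2 fold changes lay in runs on chromosomes 4 and 5, at 15.52 and 15.29. Both rest on a member with no read in a stage. With such members at their bound the spreads were 12.61 and 12.12, below the 13.18 of the run of CC1G_02355 and the 13.08 of the run of CC1G_14007. On chromosome 4, from 3044842 to 3055036, the first member CC1G_08066 counted 50 and 40 hyphal against 794 and 544 oidia reads (log2 fold change -4.68 ± 0.13, SE, adjusted p = 2.29e-283, edgeR). Its neighbour CC1G_08067, of nearly the same length (1565 and 1550 bp), counted 53 and 43 hyphal against 1 and 1 oidia reads, scaled reads in a ratio of 27.6 (95% exact limits 7.43 to 231). Hyphal levels of the 2 were close, at 6.49 ± 0.181 and 6.93 ± 0.262 CPM, while their oidia levels were far apart, at 166 ± 18.5 and 0.253 ± 0.0392 CPM (SD, n = 2 each). Then follow 3 regions of exactly 111 bp, all lower in hyphae. CC1G_14485 had no hyphal read and 182 and 156 in oidia, at least 196-fold lower in hyphae. CC1G_14483 counted 0 and 1 hyphal against 112 and 75 oidia reads, and CC1G_14484 had 0 and 1 against 13 and 17. Also of about this size, CC1G_14479, CC1G_14480 and CC1G_14481 (111, 117 and 111 bp), lay in the run upstream and had at most 4 reads in any library.

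On chromosome 5, from 507951 to 515181, the run of 6 split along its length. The first 2 members were lower in hyphae: CC1G_08242 counted 2 and 0 hyphal against 35 and 27 oidia reads, scaled reads in a ratio of 54.0 (95% exact limits 14.3 to 456), and CC1G_08241 had 42 and 30 against 60 and 65 (log2 fold change -1.60 ± 0.25, SE, adjusted p = 3.05e-10, edgeR). With total-count scaling CC1G_08241 no longer passed (-0.05, adjusted p = 0.837, edgeR). The last 4 members were of like length, 602, 573, 567 and 587 bp. Among these, CC1G_08239 had 165 and 107 hyphal reads and no oidia read, at least 52.1-fold higher. CC1G_08238 had 199 and 163 against 1 and 1, a ratio of 104 (28.6 to 862). Their flanking members of the same size, CC1G_08240 and CC1G_08237, were too sparse to test, with 2 and 1 hyphal reads and no oidia read, and 7 and 4 against 6 and 2.

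**Figure D4:**
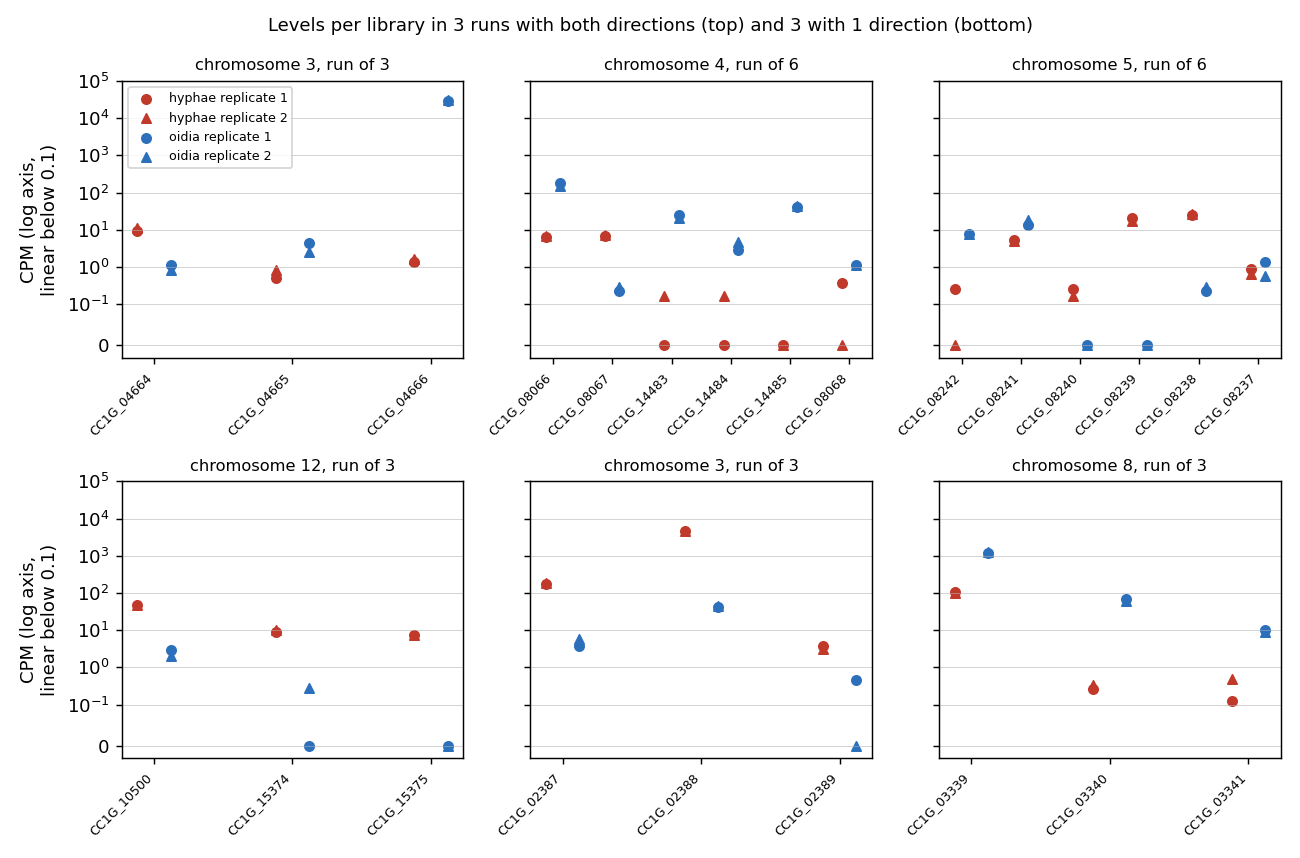
CPM of every member in each library for the 3 runs with the widest spread of fitted log2 fold changes between called members (top; 2 of them rank there through a member with no read in a stage) and the 3 runs with all called members strongly in a single direction (bottom). Red marks hyphae and blue oidia, circles replicate 1 and triangles replicate 2, on axes that are logarithmic above 0.1 CPM. In the run on chromosome 3 in the top row the blue points of CC1G_04666 stand at 30321 CPM on average.

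Of 32 runs with at least 3 called members in a single direction, the 3 in which even the smallest change was largest were all runs of 3. On chromosome 12, from 103265 to 106813, all members were higher in hyphae. CC1G_10500 counted 373 and 279 hyphal against 13 and 7 oidia reads (log2 fold change 4.21 ± 0.23, SE, adjusted p = 5.53e-75, edgeR). CC1G_15374 had 71 and 61 against 0 and 1, scaled reads in a ratio of 75.8 (95% exact limits 13.4 to 3017), and CC1G_15375 had 59 and 44 against none, at least 19.7-fold higher. The stages did not overlap in any of the 3, but the run was chosen for its large changes, so this adds no support.

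On chromosome 3, from 3316968 to 3321783, CC1G_02388 stood between 2 members that moved with it at much lower levels. CC1G_02387 counted 1346 and 1089 hyphal against 17 and 21 oidia reads (5.20 ± 0.15, SE, adjusted p = 3.54e-254, edgeR). CC1G_02389 had 29 and 19 against 2 and 0, a ratio of 13.8 (3.61 to 117). In hyphae their levels were 95.2 ± 3.42, 5420 ± 32.0 and 5.40 ± 0.610 RPKM in order along the chromosome (SD, n = 2 each).

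On chromosome 8, from 553287 to 557085, all 3 members were lower in hyphae. CC1G_03339 counted 827 and 602 hyphal against 5303 and 4551 oidia reads (-3.59 ± 0.07, SE). CC1G_03340 had 2 and 2 against 305 and 217 (-7.71 ± 0.28, SE, adjusted p = 9.62e-161, edgeR). CC1G_03341 had 1 and 3 against 45 and 32 (-4.96 ± 0.52, SE, adjusted p = 2.21e-21, edgeR). The last value was -4.17 without hyphae replicate 1 and -5.98 without hyphae replicate 2, and -3.33 when the reads of the whole gene were used in place of the region. The outer 2 are of nearly equal length, 1256 and 1252 bp, yet their oidia levels were 986 ± 46.7 and 7.65 ± 0.654 RPKM (SD, n = 2 each).

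Large differences within a run also occurred next to the named hyphal members. On chromosome 3, CC1G_02356 follows CC1G_02355 and has 818 bp where CC1G_02355 has 838. It counted 28 and 30 hyphal against 599 and 441 oidia reads (log2 fold change -4.95, adjusted p = 2.47e-246, edgeR), the reverse of its neighbour. On chromosome 11, the first 3 members of a run of 7, CC1G_15644, CC1G_15645 and CC1G_10614, were read in hyphae and had 0, 1 and 0 oidia reads in total. The next, CC1G_10615, was lower in hyphae, with 32 and 30 reads against 94 and 58 in oidia (-2.08, adjusted p = 4.72e-17, edgeR). On chromosome 10 CC1G_11035 and its neighbour CC1G_11036 (2174 and 2130 bp) were both higher in hyphae, the second with 424 and 293 reads against 8 and 5 (4.96, adjusted p = 2.3e-90, edgeR). Their run held calls in both directions, as its member CC1G_11034 was lower in hyphae (-1.11). With total-count scaling CC1G_11034 turned to 0.43.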

How the data were processed

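The authors deposited raw counts of reads for genes and elements in each library. TopHat, Bowtie 0.12.7 and DESeq are named per the submitters' processing notes. Build, annotation and counting rules (strand, multi-copy reads) are not given in the sources, so antisense reads cannot be told apart. Gene rows summed to 4586306 and 3546635 reads for hyphae and to 7519091 and 6128727 for oidia, and TMM factors from the gene rows were 1.71, 1.70, 0.589 and 0.580.

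Element rows (14514, of which 9622 had enough reads by filterByExpr on the TMM-scaled sizes) were fitted in edgeR 4.0.16 (R 4.3.3) by quasi-likelihood, with stage as the only term and Benjamini-Hochberg adjustment. Standard errors are approximate, being derived from the F statistic. A stage with no read has a bound against 3 reads over the stage. With 1 to 3 reads, ratios of stage totals scaled to library size have 95% exact (Clopper-Pearson) intervals. Both cover counting error only, as reads had no molecular identifiers. With 2 libraries per stage, the smallest two-sided permutation p is 0.333.

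The members, gene lists and tests were chosen with earlier results of these data known. Named members were the 8 largest fitted fold changes each way among calls with a mean scaled count of at least 100 and no overlap, the 5 highest RPKM per stage, the 3 longest runs, the 3 runs with both directions and the widest fitted spread, and the 3 single-direction runs with at least 3 calls and the largest smallest change. Other members of those runs, and short regions, were named after their values were seen. Lists by product name could not be evaluated, as no product names were at hand. Replicates differed beyond counting error (chi-square over its degrees of freedom, hyphae 1.28, oidia 3.44). On simulated counts for 14514 rows the fit recovered 46% of 50 rows changed 1.5-fold, 84% at 2-fold, 98% at 4-fold and 100% at 8-fold, with 4 false calls of 168. The simulation used the same scaling as the fit and a single dispersion for all rows. It changed few rows, where 84.1% of tested rows were called in the data. It therefore cannot test the scaling, or a spread that differs between rows or stages. Alternatives were other scalings, filters and thresholds, the DESeq2 1.42.0 Wald test, the replicate number as a block, each library left out, longer runs, no excluded zone and, added after the data were seen, gene rows in place of regions.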

Additional observations from a re-analysis of the deposited data

How the results depend on the processing

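Of 321 members higher and 211 lower in hyphae, total-count scaling left 105 lower, a mean count of at least 100 left 98 and 66, and runs of 5 or more held 111 and 73. Of 85 runs called in a single direction and 69 in both, the mean count of at least 100 left 27 and 10, and runs of 5 or more were 18 and 30. That filter also gave 300 calls in paralogous regions in runs of 1 or 2 (827 as reported) and 908 in orphan regions (1931). Fewer regions are tested under it, which sets these counts. Leaving out a library gave 268 to 356 higher and 187 to 202 lower members, 77 to 87 single-direction runs and 54 to 78 with both. Calls in runs of 1 or 2 were then 731 to 853, in orphan regions 1705 to 1948 and in orthologous regions 4244 to 4623.

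Under total-count scaling, log2 fold changes of CC1G_05366 (0.97), CC1G_05457 (1.29), CC1G_07033 (0.91), CC1G_11034 (0.43), CC1G_12355 (0.15), CC1G_12692 (1.41) and CC1G_14554 (1.12) turned positive. With upper quartiles those of CC1G_05457 (0.02) and CC1G_12692 (0.14) did. CC1G_05457 was -0.76 to 0.76 and CC1G_12692 -0.79 to 0.85 when a library was left out: CC1G_05457 was 0.76 without oidia replicate 1, and CC1G_12692 was 0.11 without hyphae replicate 2 and 0.85 without oidia replicate 2. Each cause was not tested. Where a stage had 1 to 3 reads and a single library held them all, leaving out that library left no read to measure.

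The replicate numbers are shared by the stages but pair no cultures (correlation of deviations -0.00844). With the replicate block 309 members were higher and 204 lower, and no call of a named member changed. With gene rows in place of regions 316 were higher and 210 lower.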
